A study of Mus musculus with 27 samples.

Results

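A set of 9 genes of the Polycomb system was followed across the differentiation of mouse embryonic stem cells (ESCs) toward gonadal progenitors and Sertoli-like cells. The set held *Cbx2*, *Cbx6*, *Cbx7* and *Cbx8* of Polycomb repressive complex 1 (PRC1) and *Ezh1*, *Ezh2*, *Eed*, *Suz12* and *Jarid2* of Polycomb repressive complex 2 (PRC2). The genes were chosen by symbol as subunits of these complexes, and all 9 were found among the 48795 Ensembl genes of each deposited table. Bulk RNA sequencing covered 27 libraries in 9 groups of 3. All groups came from 1 clone of XY cells (clone 7) of an F1:C57BL/6 x CBA background, which carries the Tesco-CFP reporter and the R26-rtTA allele, so the 3 libraries of a group are not separate genotypes. The study describes them as biological replicates, and whether each came from its own differentiation is not given in the sources used here. ESCs were routinely kept in 2i/LIF medium, and the medium of the sampled ones is not stated. EpiSC cells, an epiblast-like state, had spent 60 h in 1% knockout serum replacement together with Activin A at 20 ng/ml and bFGF at 12 ng/ml. Early mesoderm cells (M) had then spent 36 h with bFGF (20 ng/ml), BMP4 (10 ng/ml) and the PI3K inhibitor LY294002 (10 μM). All 5 intermediate mesoderm (IM) media held bFGF (5 ng/ml) and BMP (20 ng/ml). IM1 held nothing else, IM3 also retinoic acid (RA, 100 nM), IM2 RA and Activin A (10 ng/ml), IM4 RA and the GSK3 inhibitor CHIR (0.3 μM), and IM5 RA, Activin A and CHIR at the same doses. The iSLC group was made from IM3 cells by doxycycline-inducible *Nr5a1* and *Dmrt1*, moved to a Sertoli medium (with EGF, FSH, FGF9, prostaglandin D2, testosterone and Activin A) and sorted for the reporter some days later, so iSLC and IM3 also differ in medium, in Activin A and in time in culture.

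Polycomb complexes keep developmental genes silent by modifying histones. PRC2 methylates histone H3 at lysine 27 through EZH1 or EZH2, with EED and SUZ12 as core partners and JARID2 as an accessory subunit. Canonical PRC1 binds this mark through CBX proteins, and CBX7 is known as the form that prevails in pluripotent cells while forms such as CBX2 and CBX8 take over during differentiation. In the gonad, loss of *Cbx2* is known to cause male-to-female sex reversal in mice.

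The libraries held 35923040 to 84876603 expected counts. Levels are given as TPM, a level per transcript length and library size that can be compared between genes, with the mean ± SD of 3 libraries. The summed TPM of 4 markers of each stage was highest in the labelled stage for ESC, EpiSC and M. Of 4 IM markers, *Wt1* reached 149 ± 14.4 TPM in IM3 while *Pax2* stayed at or below 0.330 TPM in every group mean. In normalised read counts, *Lhx1* was highest in M (6801 to 7870, against 46.1 to 56.7 in IM3). *Osr1* was highest in iSLC (535 to 723, against 49.4 to 89.2 in IM3). The IM markers summed to 52.4 to 63.97 TPM in M. Their sum was higher in IM3 (139 to 167) and IM4 (112 to 128). It was lower in IM1 (13.1 to 14.1), IM2 (32.7 to 36.6) and IM5 (21.7 to 26.2). In iSLC, *Nr5a1* and *Dmrt1* averaged 93.8 ± 6.55 and 213 ± 18.7 TPM, whereas the Sertoli cell hormone gene *Amh* was at 0.560 ± 0.0781 TPM. The 4 Sertoli cell markers summed to 27.3 to 30.6 TPM against 41.4 to 50.5 in IM3, and most of their reads were of *Sox9*. In normalised read counts, *Sox9* (4708 to 6170 in IM3, 3179 to 3593 in iSLC) and *Cst9* (59.5 to 90.1, 19.2 to 28.6) were lower in iSLC. *Dhh* (48.3 to 53.7, 114 to 178) was higher and *Amh* overlapped. In iSLC vs IM3 0 of the 4 were called by the thresholds given below. Of these, only *Sox9* was open to a call. Over all libraries, *Amh*, *Cst9* and *Dhh* lay under the required mean normalised read count. The lack of calls therefore cannot decide how Sertoli-like the iSLC libraries are. The paper reports that iSLC cells activated the reporter and formed tubule-like structures, but differed in part from Sertoli cells of the embryo. The name iSLC is used here as a label. The libraries also fell into 2 blocks that cut across the stages. The summed TPM of 6 red blood cell genes was 11.7 to 91.03 in ESC, M, IM3 and IM4 (12 libraries) and 1.57 to 4.54 in the other groups (15 libraries). Each library's trend with GC content, the log2 level of GC-rich against GC-poor transcripts relative to the mean library, split at the same line by a narrow gap (-0.44 to -0.087 against -0.083 to 0.50). Each group lies wholly in 1 block, so block and group cannot be told apart in comparisons that cross it. Those of IM3 vs M, IM4 vs IM3 and IM5 vs IM2 lie within a block and the other 8 cross. Values with an offset for the GC trend are given where they change a call or a direction, and the part of the split in any result was otherwise not tested. In these bulk samples, fewer cells of a type and less RNA per cell cannot be told apart.

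All 9 genes differed over the 9 groups (edgeR quasi-likelihood F test, adjusted p from 2.49e-30 for *Cbx7* to 1.43e-18 for *Cbx8*), in a test that 96.4% of all 20839 genes tested also passed. The genes differed in how far they ranged. Between the highest and the lowest group mean the TPM ratio was 32.0 for *Cbx7*, 8.62 for *Jarid2* and 8.08 for *Cbx8*, and between 2.41 and 5.89 for the other 6. In pairwise comparisons a gene was called when the fold was 2 or more, the adjusted p 0.01 or less and the mean normalised read count 100 or more.

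*Cbx7*, whose product reads the H3K27 methylation mark in pluripotent cells, had the steepest decline. Its TPM was 143, 129 and 142 in the 3 ESC libraries, 98.2, 103 and 95.5 in EpiSC and 26.8, 26.7 and 27.99 in M. It was 11.8, 7.00 and 6.77 in IM1, 4.05 to 6.00 over the 12 libraries of IM2 to IM5, and 7.86, 6.99 and 9.92 in iSLC. No library of one of the first 3 stages overlapped another stage. The first IM1 library stood apart in TPM but not in normalised read counts, which were 802, 827 and 756 in IM1, and its effective length, the length RSEM estimated for the transcripts in use, was 1878 bases against 3254 and 3072. Among the lower groups, IM1 and iSLC overlapped in TPM, as did the neighbours IM5, IM2, IM4 and IM3. In normalised read counts iSLC (608 to 750) lay below IM1 and overlapped IM5 (584 to 660). By these counts IM5 lay above IM2 (490 to 558) and IM2 above IM4 (398 to 454), while IM4 and IM3 (347 to 443) overlapped.

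*Cbx2*, the family member tied to testis development, peaked in early mesoderm. TPM was 16.5, 15.5 and 17.1 in ESC, 22.1, 23.1 and 21.8 in EpiSC and 50.4, 49.9 and 50.7 in M. The IM libraries lay at 32.3 to 45.4, with IM1, IM3 and IM4 above all libraries of IM2 and IM5. The iSLC libraries, at 28.97, 28.7 and 29.3, were lower than all IM libraries and, in TPM, higher than those of EpiSC. In normalised read counts iSLC (3361 to 3406) and EpiSC (3106 to 3375) overlapped.

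*Cbx8*, which lies 5034 bases from *Cbx2* on chromosome 11 and on the opposite strand, was lowest in the pluripotent stages. TPM was 1.40, 1.21 and 1.55 in ESC, 1.34, 1.10 and 1.26 in EpiSC and 2.48, 2.82 and 3.12 in M. These low levels rest on 65 to 115 expected counts per ESC or EpiSC library. All 15 IM libraries lay at 6.57 to 11.4 and iSLC at 10.7, 8.81 and 8.51, so every IM and iSLC library exceeded every earlier one, and the 6 groups overlapped from neighbour to neighbour.

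*Cbx6*, a less studied reader that lies 81118 bases from *Cbx7* on chromosome 15, was highest in iSLC. Its TPM was 16.97, 15.4 and 18.95 in ESC, 37.1, 36.5 and 35.3 in EpiSC and 18.2, 16.5 and 19.5 in M. The IM libraries held 23.4 to 36.6 TPM, with neighbouring IM groups overlapping, and the iSLC libraries held 101, 99.5 and 101. The iSLC libraries were thus all above every other library, and ESC and M overlapped at the bottom.

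**Figure D1:**
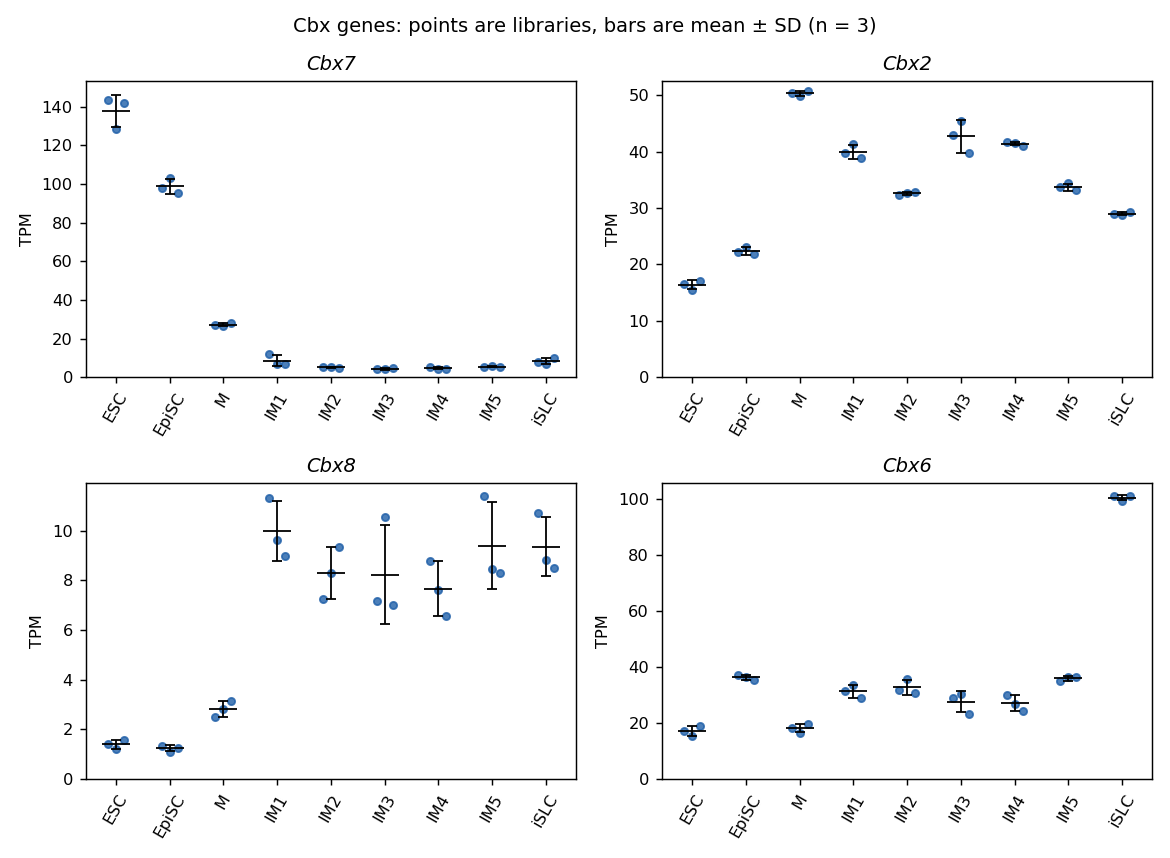
TPM (vertical axes, starting at 0) of *Cbx7*, *Cbx2*, *Cbx8* and *Cbx6* in the 9 groups (horizontal axes). Points are single libraries and bars the mean ± SD of 3. *Cbx7* is highest in ESC (138 ± 8.26), *Cbx2* in M (50.3 ± 0.435), *Cbx8* in the IM and iSLC groups and *Cbx6* in iSLC (101 ± 0.985).

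The make-up of the summed level of the 4 readers differed more between stages than its size. As a share of the summed TPM of the 4 Polycomb genes *Cbx2*, *Cbx6*, *Cbx7* and *Cbx8*, *Cbx7* made up 79.8% ± 0.716 in ESC, 62.3% ± 0.562 in EpiSC, 27.6% ± 0.230 in M and 5.26% ± 1.00 in IM3. *Cbx2* had the largest share in M, with 51.2% ± 1.01, and in IM1, IM3 and IM4, with 51.6% ± 1.43 in IM3. In IM2 the shares of *Cbx2* and *Cbx6* were 41.4% ± 1.32 and 41.6% ± 1.91, within their spread of each other, and in IM5 they were 39.9% ± 0.423 and 42.6% ± 1.48. *Cbx6* made up 68.4% ± 0.637 in iSLC. *Cbx8* stayed a small part, from 0.778% ± 0.0933 in EpiSC to 11.1% ± 1.96 in IM5. The summed level was 173 ± 10.6 TPM in ESC, 98.4 ± 2.76 in M, 82.9 ± 7.86 in IM3 and 147 ± 2.80 in iSLC. The ratio of *Cbx7* to *Cbx2* TPM was 8.43 ± 0.245 in ESC, 4.43 ± 0.0347 in EpiSC, 0.539 ± 0.0110 in M and 0.102 ± 0.0166 in IM3. The order of the pair therefore turned between EpiSC and M, in all 3 libraries of each. These shares are descriptions with no test.

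**Figure D2:**
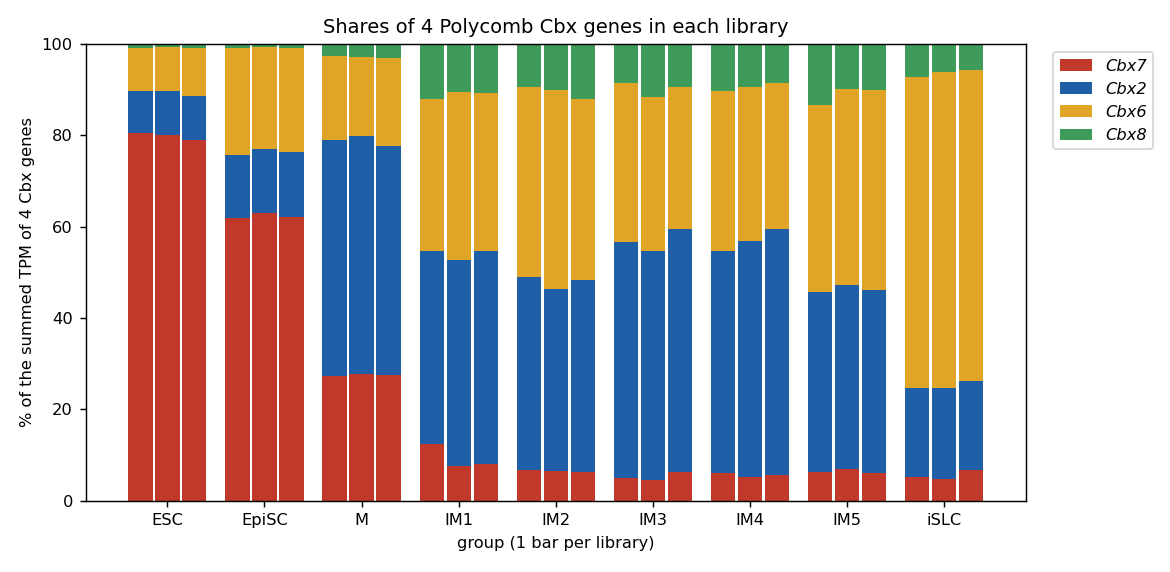
Each bar is 1 library and splits the summed TPM of 4 *Cbx* genes into shares (vertical axis, %), with libraries grouped by stage on the horizontal axis. *Cbx7* fills most of the ESC bars (79.8% ± 0.716), *Cbx2* about as much as all others together in M (51.2% ± 1.01) and *Cbx6* most of the iSLC bars (68.4% ± 0.637).

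The stretches just before the starts of *Cbx7* and *Cbx8*, the 2 readers with the widest opposite courses, are given as sequence context. They are the 250 bases before the RefSeq start in the GRCm38.p6 table, which matched 8 of the 9 genes (*Cbx2* had no entry). The *Cbx7* window lies inside the longer *Cbx7* gene of the annotation used for positions. Those of *Cbx6*, *Ezh2* and *Jarid2* likewise lie inside their annotated genes, and those of *Cbx8* and *Eed* lie partly inside. Capitals mark CCAAT or its reverse complement ATTGG, the letters of the CCAAT box, which was searched on both strands.
Cbx7, chr15:79932647-79932896 (minus strand): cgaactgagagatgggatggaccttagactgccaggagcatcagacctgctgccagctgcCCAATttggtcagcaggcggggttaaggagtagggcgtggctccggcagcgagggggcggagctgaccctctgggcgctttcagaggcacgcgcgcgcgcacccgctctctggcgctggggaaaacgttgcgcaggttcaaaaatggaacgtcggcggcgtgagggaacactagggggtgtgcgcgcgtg
Cbx8, chr11:119040914-119041163 (minus strand): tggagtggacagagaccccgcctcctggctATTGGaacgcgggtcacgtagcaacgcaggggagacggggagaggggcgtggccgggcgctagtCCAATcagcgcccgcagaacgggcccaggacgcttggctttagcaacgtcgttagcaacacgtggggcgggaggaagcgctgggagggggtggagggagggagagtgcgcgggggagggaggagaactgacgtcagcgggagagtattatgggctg
The *Cbx7* window held 1 match and the *Cbx8* window 2. Of all 32851 windows of this length in the table, 33.8% held at least 1. The windows of the 8 matched genes (9 windows, 2 of them of *Jarid2*) held 12 to 37 CpG dinucleotides, against a median of 6 over all windows. A match is a description of letters.

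Of the PRC2 genes, *Ezh2*, the main H3K27 methyltransferase of dividing cells, kept a high level until the last step. Its TPM was 173, 170.1 and 160.0 in ESC, 132, 138 and 136 in EpiSC and 215, 181 and 223 in M. The IM libraries lay at 141 to 191, with IM3 and IM4 overlapping M in TPM. In normalised read counts they lay below M, at 8971 to 10057 in IM3 against 11276 to 11995 in M. The edgeR log2 fold change was -0.30 (SE 0.045, adjusted p = 1.83e-06) in IM3 vs M. It was -0.58 (SE 0.045, adjusted p = 1.11e-11) in IM1 vs M, both under the fold minimum. In iSLC it was 73.9, 71.2 and 71.95, and each iSLC library was lower than all others.

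*Ezh1*, the second methyltransferase and the one known from resting cells, followed another course. It was 21.8, 18.4 and 18.2 TPM in ESC, 18.4, 15.3 and 16.3 in EpiSC and 15.3, 14.2 and 14.9 in M. It was 8.57, 7.62 and 8.09 in IM3, 7.98 to 10.7 over the other IM libraries and 19.4, 19.5 and 18.7 in iSLC. In TPM, ESC and iSLC overlapped at the top, and IM3, IM4 and IM2 overlapped at the bottom. Normalised read counts of ESC and iSLC did not overlap, at 2737 to 2928 in ESC and 1968 to 2051 in iSLC. The ratio of *Ezh2* to *Ezh1* TPM was 8.66 ± 0.644 in ESC, 13.9 ± 1.06 in M, 22.7 ± 0.916 in IM3 and 3.77 ± 0.112 in iSLC. *Ezh1* thus made up 20.8%, 21.5% and 20.6% of the pair in the iSLC libraries and 4.38%, 4.25% and 4.06% in IM3, a description with no test.

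*Eed*, which binds the methylated histone and stimulates the enzyme, was highest in ESC. Its TPM was 169.7, 173 and 187 in ESC, 109.8, 103 and 106 in EpiSC and 74.97, 68.8 and 78.2 in M. The IM libraries, at 78.96 to 104, all lay above the M libraries and overlapped each other, and iSLC held 57.02, 63.5 and 53.9. The edgeR log2 fold change from M was small, at 0.13 (SE 0.048, adjusted p = 0.0205) in IM1 and 0.16 (SE 0.049, adjusted p = 0.00517) in IM3. With the length offset the IM3 value was 0.14 (adjusted p = 0.101).

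*Suz12*, the scaffold of the core complex, went from 123, 117 and 124 TPM in ESC to 76.9, 71.2 and 76.5 in EpiSC and 81.4, 69.7 and 84.1 in M. EpiSC and M overlapped. The IM libraries were at 36.5 to 54.3 and iSLC at 36.1, 36.2 and 35.3, lower than all others.

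*Jarid2*, which helps to recruit PRC2 to chromatin, had the largest range of the PRC2 genes. TPM was 177, 156 and 187 in ESC, 78.2, 78.5 and 73.8 in EpiSC and 38.3, 33.8 and 40.7 in M. Among the IM media it was 20.3, 21.1 and 18.9 in IM1, 29.6, 29.98 and 28.2 in IM2 and 39.01, 42.97 and 40.2 in IM3. The IM3 and IM4 libraries overlapped M, the IM5 libraries at 23.8, 26.5 and 27.4 overlapped iSLC at 26.2, 25.9 and 25.4, and IM1 was lower than all other groups. In normalised read counts IM5 (4855 to 5128) and iSLC (4551 to 4799) did not overlap.

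**Figure D3:**
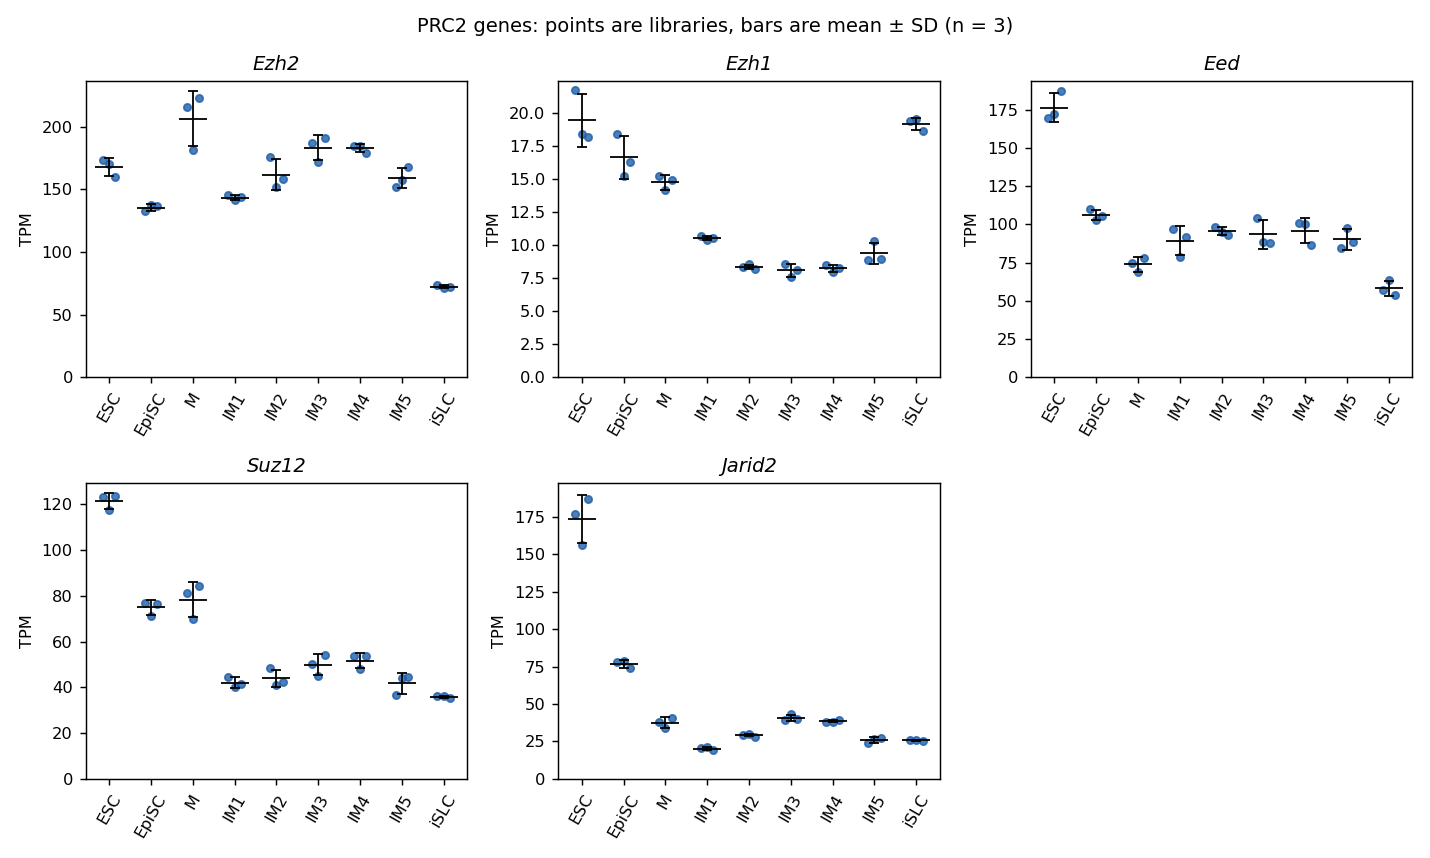
TPM (vertical axes, starting at 0) of 5 PRC2 genes in the 9 groups (horizontal axes). Points are single libraries and bars the mean ± SD of 3. *Ezh2* is lowest in iSLC (72.3 ± 1.39), where *Ezh1* (19.2 ± 0.471) overlaps its ESC level in TPM but not in normalised read counts. *Jarid2* is at 173 ± 15.9 in ESC and 20.1 ± 1.10 in IM1.

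The comparison of EpiSC with ESC covered the exit from the stem cell state. *Jarid2* fell and *Cbx6* rose, so 1 gene of the 9 was called in each direction, where 3.75% of all genes tested were called higher and 4.32% lower. The log2 fold change of *Jarid2* was -1.10 (SE 0.049, adjusted p = 2.39e-16) and that of *Cbx6* 1.03 (SE 0.053, adjusted p = 5.15e-15). The *Cbx6* value sat at the fold minimum and was 0.94 (adjusted p = 1.57e-18) with the GC offset, where it was no longer called. *Eed* (-0.61, SE 0.048, adjusted p = 2.27e-11), *Suz12* (-0.64, SE 0.054, adjusted p = 1.06e-10) and *Cbx2* (0.49, SE 0.049, adjusted p = 3.05e-09) passed the p threshold without reaching a fold of 2. For *Cbx7* the estimate depended on the offset used. Its read counts gave -0.13 (SE 0.065, adjusted p = 0.0869), while an offset for the effective length, which averaged 2203 bases in ESC and 2738 in EpiSC, gave -0.43 (adjusted p = 0.00418). The GC offset gave -0.23 (adjusted p = 0.00101).

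In early mesoderm the readers moved in both directions. *Cbx2* and *Cbx8* rose and *Cbx7* and *Jarid2* fell, which made 2 called genes in each direction (6.79% of all genes tested were called higher and 7.72% lower). The log2 fold changes were 1.45 (SE 0.13, adjusted p = 8.4e-11) for *Cbx8* and 1.11 (SE 0.048, adjusted p = 4.41e-17) for *Cbx2*. They were -1.86 (SE 0.068, adjusted p = 1.25e-18) for *Cbx7* and -1.08 (SE 0.049, adjusted p = 1.61e-16) for *Jarid2*. *Cbx6* was lower by less than the fold minimum, at -0.96 (SE 0.053, adjusted p = 8.13e-15), and was called with the length offset, at -1.08 (adjusted p = 9.4e-12). The core gene *Suz12* gave -0.026 (SE 0.054, adjusted p = 0.686), its EpiSC and M libraries overlapping, and *Ezh2* gave 0.51 (SE 0.045, adjusted p = 1.37e-10).

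From M to the IM media *Cbx8* rose again and *Cbx7* fell again. In IM1, *Cbx8* rose (1.42, SE 0.11, adjusted p = 5.44e-12) and *Cbx7* (-1.94, SE 0.072, adjusted p = 1.42e-18) and *Jarid2* (-1.06, SE 0.050, adjusted p = 2.69e-16) fell, against 9.72% of all genes called higher and 5.94% lower. *Suz12* came just short of the fold minimum in IM1, at -0.99 (SE 0.055, adjusted p = 8.29e-15). In IM3, which adds RA, *Cbx8* rose (1.04, SE 0.11, adjusted p = 4.74e-09) and *Cbx7* (-2.91, SE 0.080, adjusted p = 2.35e-21) and *Ezh1* (-1.10, SE 0.059, adjusted p = 4.43e-15) fell, against 9.26% called higher and 5.66% lower. M and IM3 lie in the same block of libraries. The *Cbx8* call in IM3 rested on 2 libraries, since without the first M library the log2 fold change was 0.97 and without the second IM3 library 0.93, both short of the minimum. In IM1, *Suz12* was called without M replicate 2 (-1.03) or IM1 replicate 1 (-1.003) and stood at -0.68 with the GC offset, and *Jarid2* was no longer called with the length offset (-0.997). *Jarid2* in IM3 gave -0.10 (SE 0.049, adjusted p = 0.089), with overlapping libraries. *Cbx2* was lower than in M by less than the fold minimum in both, at -0.47 (SE 0.047, adjusted p = 1.64e-09) in IM1 and -0.44 (SE 0.048, adjusted p = 7.05e-09) in IM3. Both comparisons share the M libraries.

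Between IM1 and IM3, which differ in RA, no gene of the 9 was called by edgeR or DESeq2. In edgeR 2.62% of all genes tested were called higher and 3.72% lower. At an unadjusted p under 0.05 there were 7 of the 9 (and 55.7% of all genes tested), and without the fold minimum 6 passed (and 34.5% of all genes), of which 4 still had an adjusted p of 0.01 or less with the GC offset and 5 with the length offset. Values of 2 genes came close to the fold minimum. *Jarid2* was 0.96 (SE 0.050, adjusted p = 1.08e-14) on the log2 scale in IM3 relative to IM1, and *Cbx7* was -0.97 (SE 0.082, adjusted p = 1.76e-10). *Cbx7* passed the minimum with the length offset (-1.07, adjusted p = 1.93e-06) and when IM1 replicate 3, IM3 replicate 1 or IM3 replicate 2 was left out (-1.01 to -1.03). *Ezh1* (-0.45, SE 0.059, adjusted p = 3.88e-07) and *Ezh2* (0.28, SE 0.045, adjusted p = 1.09e-05) passed the p threshold in opposite directions. *Cbx6* at -0.21 (SE 0.052, adjusted p = 0.00129) changed sign with the GC offset, to 0.0062 (adjusted p = 0.901).

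Activin A was compared in the presence of RA, without CHIR (IM2 vs IM3) and with it (IM5 vs IM4). No gene of the 9 was called in either by edgeR or DESeq2. Over all genes tested, edgeR called 2.46% higher and 1.34% lower in IM2, and 2.63% and 1.46% in IM5. Without the fold minimum 5 genes of the 9 passed in the first comparison and 7 in the second, where 26.1% and 31.8% of all genes did. At an unadjusted p under 0.05 there were 6 and 7 of the 9, against 47.7% and 53% of all genes. With the GC offset 2 of the 5 (*Cbx2* and *Jarid2*) and 5 of the 7 still had an adjusted p of 0.01 or less. *Jarid2* was lower with Activin A by these p values, at -0.43 (SE 0.050, adjusted p = 8.28e-08) without CHIR and -0.52 (SE 0.049, adjusted p = 3.3e-09) with it. *Cbx2* was -0.37 (SE 0.048, adjusted p = 5.54e-07) and -0.26 (SE 0.048, adjusted p = 6.71e-05), and *Cbx7* was 0.38 (SE 0.086, adjusted p = 0.000855) and 0.56 (SE 0.082, adjusted p = 3.18e-06). With the length offset neither *Cbx7* value passed, at 0.29 (adjusted p = 0.161) without CHIR and 0.34 (adjusted p = 0.0707) with it. With the GC offset they were 0.20 (adjusted p = 0.048) and 0.30 (adjusted p = 0.00236). *Suz12* at -0.25 (SE 0.055, adjusted p = 0.000563) with CHIR turned to 0.010 (adjusted p = 0.817) with the GC offset.

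CHIR was compared without Activin A (IM4 vs IM3) and with it (IM5 vs IM2). Neither edgeR nor DESeq2 called a gene of the 9 in either, and in edgeR none passed the adjusted p threshold. The log2 fold changes lay between -0.011 (*Cbx2*, SE 0.048) and 0.12 (*Eed*, SE 0.049) in the first and between -0.086 (*Jarid2*, SE 0.049) and 0.26 (*Cbx7*, SE 0.079) in the second. Unadjusted p values under 0.05 were given for 1 and 4 genes of the 9, and for 12.1% and 22% of all genes tested. Over all genes tested, edgeR called 0% higher and 0.101% lower in IM4, and 0.0432% and 0.192% in IM5. The edgeR test of the interaction of both agents, with no fold minimum, called 0 of the 9 and 0.173% of all genes. DESeq2 also called 0 of the 9, and 139 genes in all. The edgeR differences lay between -0.11 (*Suz12*, SE 0.077) and 0.18 (*Cbx7*, SE 0.12). At an unadjusted p under 0.05 there were 0 genes of the 9 in edgeR, against 10.5% of all genes.

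From IM3 to iSLC the 2 methyltransferase genes moved in opposite directions. *Cbx6* and *Ezh1* rose and *Ezh2* fell, against 10.3% of all genes called higher and 8.92% lower. The log2 fold changes were 1.89 (SE 0.053, adjusted p = 3.79e-21) for *Cbx6*, 1.11 (SE 0.059, adjusted p = 2.4e-15) for *Ezh1* and -1.27 (SE 0.046, adjusted p = 7.57e-19) for *Ezh2*. All 3 kept these calls with the GC offset, *Cbx6* at 1.56, *Ezh1* at 1.15 and *Ezh2* at -1.06. The core genes *Eed* (-0.91, SE 0.050, adjusted p = 4.61e-15) and *Suz12* (-0.46, SE 0.055, adjusted p = 2.55e-08) and the accessory gene *Jarid2* (-0.61, SE 0.050, adjusted p = 2.13e-11) were lower by less than the fold minimum. With the GC offset *Eed* was -0.73, *Suz12* -0.18 and *Jarid2* -0.59. *Cbx2* was -0.61 (SE 0.048, adjusted p = 9.46e-12) and was called with the GC offset, at -1.004. *Cbx7* was 0.75 (SE 0.084, adjusted p = 9.03e-09) and 0.41 (adjusted p = 4.48e-05) with the GC offset. Of 10 genes of cell division 6 were called lower and 0 higher in the same step, while *Mki67*, named here after its value was seen, gave 0.11 (SE 0.082, adjusted p = 0.213). Their summed TPM was 2369 to 2467 in IM3 and 1088 to 1139 in iSLC. Of 5 endothelial genes 4 were called lower and 1 higher, and their summed TPM was 64.6 to 75.96 in IM3 and 27.5 to 29.99 in iSLC. The part of either in the change of *Ezh2* was not tested.

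The stretch before the *Ezh2* RefSeq start, shown because *Ezh2* was the 1 PRC2 gene of the set called lower in this step, carried 3 CCAAT or ATTGG matches (capitals). This was the highest number among the 9 windows, and 2.79% of all windows held 3 or more. All windows had a median of 6 CpG, against 23 in the *Ezh2* window, so the share is not one among like windows. The *Ezh2* window lies inside the annotated *Ezh2* gene. A link of the matches to the level of *Ezh2* was not tested.
Ezh2, chr6:47595031-47595280 (minus strand): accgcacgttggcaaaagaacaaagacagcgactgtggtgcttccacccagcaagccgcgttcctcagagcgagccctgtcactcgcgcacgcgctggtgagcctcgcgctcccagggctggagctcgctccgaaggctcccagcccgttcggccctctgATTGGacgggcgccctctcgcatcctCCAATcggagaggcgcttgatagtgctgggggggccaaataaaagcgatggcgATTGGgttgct
The windows of *Cbx6*, *Eed* and *Ezh1* held none, and those of *Suz12* and the first start of *Jarid2* held 1 each.

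Over the whole path, from ESC to iSLC, 7 of the 9 genes were called, 2 higher and 5 lower, against 17% and 15% of all genes. *Cbx8* (2.37, SE 0.12, adjusted p = 3.83e-16) and *Cbx6* (2.34, SE 0.054, adjusted p = 1.24e-23) rose. *Cbx7* had the largest fall, at -4.15 (SE 0.076, adjusted p = 8.39e-26). The PRC2 genes *Jarid2* (-2.88, SE 0.052, adjusted p = 6.27e-26), *Eed* (-2.03, SE 0.050, adjusted p = 4.51e-23), *Suz12* (-1.97, SE 0.056, adjusted p = 9.06e-22) and *Ezh2* (-1.30, SE 0.046, adjusted p = 1.4e-19) fell. *Cbx2* at 0.55 (SE 0.049, adjusted p = 5.84e-11) and *Ezh1* at -0.50 (SE 0.056, adjusted p = 4.46e-09) did not reach the fold minimum. With the length offset *Ezh1* was -0.22 (adjusted p = 0.0019), and in TPM its ESC and iSLC libraries overlapped. The median log2 fold change of the 9 was -1.30, and that of all genes tested -0.0070.

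**Figure D4:**
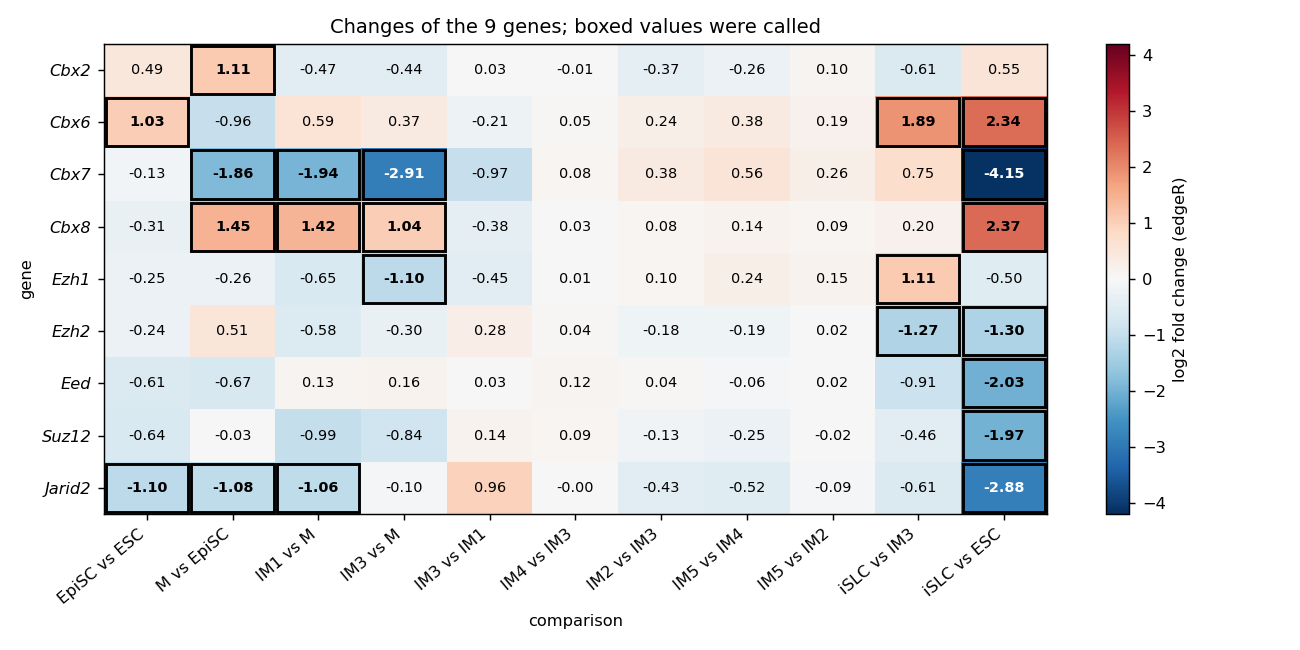
Log2 fold change (colour and number) of the 9 genes (vertical axis) in 11 comparisons (horizontal axis), with called values boxed and in bold. Boxes gather in the stage comparisons at the left and the iSLC comparisons at the right, and the 5 comparisons between IM media hold none.

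The other genes of the pathway were counted in the same tests. Of 27 other Polycomb genes, 0 were called higher and 2 lower in EpiSC vs ESC, 2 and 4 in M vs EpiSC, 4 and 2 in IM1 vs M, 3 and 3 in IM3 vs M, 1 and 2 in iSLC vs IM3 and 6 and 6 in iSLC vs ESC. Between IM media the counts were 0 and 2 in IM3 vs IM1, 1 and 0 in IM2 vs IM3, 2 and 0 in IM5 vs IM4 and 0 in either direction for CHIR. Their median log2 fold change in iSLC vs ESC was -0.36. *Epop*, an accessory PRC2 subunit of pluripotent cells, had the largest fall in iSLC vs ESC (-5.69, SE 0.10, adjusted p = 4.48e-26), from 279 ± 22.9 to 6.21 ± 0.770 TPM. *Phc1*, a canonical PRC1 subunit, fell in iSLC vs ESC (-2.69, SE 0.054, adjusted p = 5.04e-25) where its paralog *Phc2* (2.18, SE 0.063, adjusted p = 1.35e-21) rose. *Phf19*, which encodes an accessory PRC2 subunit, fell in M vs EpiSC (-2.55, SE 0.088, adjusted p = 4.37e-19) and rose in IM3 vs M (1.73, SE 0.091, adjusted p = 2.53e-15). *Phf1*, another accessory subunit, rose in iSLC vs IM3 (1.44, SE 0.072, adjusted p = 5.68e-16), though 39.3% of its exonic bases are shared with *Cuta* on the opposite strand, a gene of like count, and whether counting used strand is not stated. *L3mbtl2*, of a variant PRC1, fell in iSLC vs IM3 (-1.72, SE 0.045, adjusted p = 6.58e-22) and in iSLC vs ESC (-3.40, SE 0.046, adjusted p = 2.21e-28).

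Among IM media, *Pcgf5*, which encodes a variant PRC1 subunit, was called in 3 of the 5 comparisons, and outside them it rose in M vs EpiSC and IM1 vs M. It averaged 92.05 ± 5.67 TPM in IM1, 48.4 ± 0.531 in IM2 and 19.5 ± 1.31 in IM3. It fell with RA (-2.37, SE 0.064, adjusted p = 3.53e-20 in IM3 vs IM1) and rose with Activin A (1.39, SE 0.064, adjusted p = 5.4e-15 in IM2 vs IM3), with 1.23 (SE 0.063, adjusted p = 2.19e-14) in IM5 vs IM4. The cell cycle inhibitors *Cdkn2a* and *Cdkn2b*, neighbouring genes and textbook targets of Polycomb, also rose with Activin A, with log2 fold changes of 1.49 (SE 0.14, adjusted p = 2.55e-09) and 1.53 (SE 0.12, adjusted p = 6.24e-11) in IM2 vs IM3 and 1.33 (SE 0.13, adjusted p = 8.39e-09) and 1.14 (SE 0.11, adjusted p = 6.93e-09) in IM5 vs IM4. In iSLC vs IM3 they rose by 2.82 (SE 0.14, adjusted p = 4.99e-16) and 1.85 (SE 0.12, adjusted p = 9.69e-14), to 81.3 ± 5.40 and 46.3 ± 2.73 TPM. All of these except the IM5 vs IM4 values share the IM3 libraries. Of 6 genes that oppose Polycomb (H3K27 demethylases, the H2A deubiquitinase and its ASXL partners), *Asxl3* was the 1 called in any of the 11 comparisons, rising in iSLC vs IM3 (1.08, SE 0.11, adjusted p = 2.99e-09) and iSLC vs ESC (2.90, SE 0.13, adjusted p = 1.55e-17).

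Likeness of pattern was measured as Pearson r over the 9 group means of log2 CPM, among 13468 genes with a mean normalised read count of at least 100. These points share libraries and stages, and r is given as a description. Closest to *Cbx7* were *Kif5a* (r = 0.995), *Adgrb1* (r = 0.995) and *A4galt* (r = 0.995). Closest to *Cbx2* were *4933407K13Rik* (r = 0.974), *Zfp113* (r = 0.973) and *Gm45889* (r = 0.965). Closest to *Ezh1* were *Ccdc28a* (r = 0.988), *Lonp1* (r = 0.985) and *Grhpr* (r = 0.984).

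By position in GRCm38 the readers form 2 pairs of neighbours, *Cbx2* (chr11:119022962-119031270) with *Cbx8* (chr11:119036305-119040969) and *Cbx6* (chr15:79823896-79834688) with *Cbx7* (chr15:79915807-79971119). *Cbx2* and *Cbx8* were both called higher in M vs EpiSC, whereas in IM1 and IM3 relative to M *Cbx8* was called higher and *Cbx2* had negative log2 fold changes under the fold minimum. In the other pair *Cbx6* was highest in iSLC and *Cbx7* in ESC. *Ezh1* and *Suz12* also lie on chromosome 11, *Ezh2* on chromosome 6, *Eed* on 7 and *Jarid2* on 13. Annotated exons of another gene overlapped 5.3% of the exonic bases of *Cbx6* (*Npcd*, same strand), 6.8% of *Eed*, 3.6% of *Suz12*, 2.6% of *Ezh2* and 1.5% of *Cbx7* (opposite strand).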

How the data were processed

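RNA-seq of 27 libraries in 9 groups was analysed. The authors trimmed reads with cutadapt 1.9.1, aligned them to GRCm38 with STAR 2.5.2a and quantified genes with RSEM 1.3.0. They deposited, per library and gene, RSEM's expected counts (not scaled between libraries), TPM and FPKM (both per effective length) and the effective length itself. Whether counting used strand is not given in the sources used here. Of 48795 genes, 48349 (99.09%) matched names in GENCODE M21.

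Expected counts were rounded. After filterByExpr, 20839 genes entered 1 quasi-likelihood model of edgeR 4.0.16 under R 4.3.3 with TMM factors and a coefficient for each group. P-values were adjusted over all genes tested (Benjamini-Hochberg). Calls required adjusted p ≤ 0.01, fold ≥ 2 and a mean normalised read count ≥ 100, both across the libraries and in 1 or more of the groups compared. The F test over 9 groups used 0.05, and the interaction had no fold minimum. SEs were derived from the F statistic. Scripts were tested on simulated data. Alternatives were DESeq2 1.42.0, its size factors, offsets for effective length and GC content, a replicate block, other filters and leaving out each replicate. The study calls the libraries of a group biological replicates. Whether each came from its own differentiation is not given in the sources used here, so p-values measure the spread between these libraries, which may be technical.

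The 9 genes and all lists were chosen with earlier results of these data known. Of the other lists, all were counted, and up to 3 of the largest called rises and falls per comparison could be named. For likeness of pattern the 3 genes with the highest r were named. A planned gene is not reported here and was left out of the lists and shares.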

Additional observations from a re-analysis of the deposited data

How the results depend on the processing

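The calls at a fold of 2 or more changed little with the processing. Of 67 member values under 14 settings each, 918 of 938 alternatives kept direction and stayed called or uncalled, 7 lost a call, 9 gained one and 4 changed sign. Most of the 67 values were not called in the main fit and so could not lose a call. An uncalled value whose adjusted p rose past 0.01 was counted as kept. For example, *Ezh2* in IM5 vs IM4 went to an adjusted p of 0.599 with the GC offset (edgeR). The total is therefore no measure of how firm these values are. The sign changes were *Cbx6* in IM3 vs IM1 (0.0062 with the GC offset and 0.0061 with the replicate block and GC offset) and *Suz12* in IM5 vs IM4 (0.010 with both). In EpiSC vs ESC 1 member in place of 2 was called with DESeq2's size factors, with the DESeq2 test and with the GC offset, with or without the replicate block, each time without *Cbx6* (log2 fold change 0.94 to 0.998). In IM3 vs IM1 the length offset gave 1 call in place of 0, and leaving out 1 replicate gave 0 to 1, against 3 to 4 in IM1 vs M and 2 to 3 in IM3 vs M. With no fold minimum 7 members were called in EpiSC vs ESC, 8 in M vs EpiSC, 8 in IM1 vs M, 8 in IM3 vs M, 6 in IM3 vs IM1, 5 in IM2 vs IM3, 7 in IM5 vs IM4 and 8 in iSLC vs IM3, so these counts depend on that minimum. Over all genes tested 37.7%, 46.3%, 47.7%, 45.5%, 34.5%, 26.1%, 31.8% and 50.4% were then called, in the same order. The cause of the other changes was not tested. Equal replicate numbers did not mark related libraries, since the deviations of same-numbered libraries correlated by 0.0024 on average over 108 pairs, and the replicate block changed none of the counts of called members (for example 3 in iSLC vs IM3). With deposited FPKM in place of TPM the ratio of highest to lowest group was 4.97 for *Cbx6*, 35.8 for *Cbx7*, 2.70 for *Ezh1*, 3.28 for *Ezh2*, 3.599 for *Eed* and 4.01 for *Suz12*. Depth limits *Cbx8* most, with 65 to 115 expected counts in ESC libraries.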
